A study of Mus musculus with 19 samples.

Results

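The genes described here are 9 genes of the smooth muscle contractile apparatus, Acta2, Actg2, Myl9, Myh11, Tagln, Cnn1, Cald1, Tpm1 and Tpm2, out of 27998 genes in the files. They were chosen by name and followed in all 19 single-cell RNA libraries of the series, which hold 39541 cells after filtering. Their levels were taken in 3 classes of cells rebuilt from the data: 576 smooth muscle-like cells, 1013 pericyte-like cells and 11563 Pdgfra-positive stromal cells. The comparison concerns where in an injured mouse hindlimb the contractile transcripts are made: in the vessel wall, or in stromal cells with contractile genes switched on, the state called myofibroblast.

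Smooth muscle cells shorten when myosin motors pull on actin filaments. Acta2 and Actg2 encode the smooth muscle actins, Myh11 the smooth muscle myosin heavy chain and Myl9 a regulatory light chain of myosin. Tropomyosins (Tpm1, Tpm2), caldesmon (Cald1), calponin (Cnn1) and transgelin (Tagln) bind along the actin filament. Vascular smooth muscle makes all of them, and pericytes, the mural cells of capillaries, make some. Fibroblasts of a healing wound can take on actin and its binding proteins and then pull on the matrix, and Acta2 is the usual marker of that state.

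The mice underwent a dorsal burn together with tenotomy of the Achilles tendon, an injury after which ectopic bone (heterotopic ossification) forms, and tissue came from the tenotomy site. Day 0 had 4 libraries, day 3 had 3, day 7 had 4 and day 21 had 4. A further 4 libraries came from mice given p7N3, a peptide that activates the receptor CD47, at 10 mg/kg by daily intraperitoneal injection, which the labels give for 3 days before and 3 days after the injury, with harvest at day 7. Day 0 is described in the study's text as tissue from before injury, although its labels name the burn model as well. The labels name no vehicle for the day 7 libraries. The strains given for the series as a whole are C57 and LysmCre/Tgfb1fx/fx, in which Cre acts in myeloid cells, and neither is assigned to a library. The study's methods give young adult males for its wild-type mice. Its reporting summary speaks of variability among mice for the repeats of each time point. No source ties a library to a mouse, so that every p-value measures the spread between libraries, which may be partly technical.

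The genes lie on 6 chromosomes of GRCm38. Acta2 is at chr19:34241090-34255590 on the minus strand, Actg2 at chr6:83512905-83536265 (minus), Myh11 at chr16:14194535-14291372 (minus) and Myl9 at chr2:156775420-156781658 (plus). Tagln is at chr9:45929619-45936058 (minus), Cnn1 at chr9:22099216-22109630 (plus), Tpm1 at chr9:67022590-67049406 (minus), Tpm2 at chr4:43514711-43523765 (minus) and Cald1 at chr6:34598500-34775473 (plus). RefSeq promoter sequences (GRCm38.p6, 250 bases before to 50 bases after the start) were matched for 6 of the 9 genes, and Tagln, Actg2 and Myh11 had no entry. The CArG box, the element bound by serum response factor, is CC, then 6 bases of A or T, then GG. Both strands were searched for it and for a CArG-like box, in which 1 of the 6 inner bases may be G or C. The promoters of Acta2 and Myl9 are shown because they were the matched members that held such an element, which stands in capitals. Acta2 is at chr19:34255324-34255623 (minus strand) and Myl9 at chr2:156775214-156775513 (plus strand).
Acta2: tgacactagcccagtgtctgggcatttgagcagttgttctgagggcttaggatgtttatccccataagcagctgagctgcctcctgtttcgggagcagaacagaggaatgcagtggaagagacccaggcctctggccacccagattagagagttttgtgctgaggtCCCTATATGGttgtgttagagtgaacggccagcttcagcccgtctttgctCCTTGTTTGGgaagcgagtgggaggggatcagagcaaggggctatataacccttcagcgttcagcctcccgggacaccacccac
Myl9: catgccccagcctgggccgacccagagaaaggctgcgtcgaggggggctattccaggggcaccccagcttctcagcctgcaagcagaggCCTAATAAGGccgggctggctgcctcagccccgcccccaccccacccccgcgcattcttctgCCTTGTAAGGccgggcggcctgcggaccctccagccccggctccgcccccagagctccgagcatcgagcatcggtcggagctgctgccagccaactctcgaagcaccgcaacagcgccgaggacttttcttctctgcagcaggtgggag

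The Acta2 promoter held 2 CArG-like boxes, beginning 84 and 34 bases before the start. The Myl9 promoter held a CArG box 161 bases before the start and a CArG-like box 99 bases before it. Of 32851 promoters of the same length, 1.63% held a CArG box and 9.98% a CArG-like box. Neither was found in the windows of Cnn1, Tpm1, Tpm2 and Cald1, which says only that those letters were absent from these 300-base windows. CATTCC, the core bound by TEAD factors, occurred in the windows of Acta2 and Tpm1, in 1 of the 2 windows of Cald1 and in 14.7% of all promoters. A match is a description of the sequence and not evidence of binding.

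Cells were clustered without the 9 genes and without 83 further genes of contraction, cytoskeleton, matrix and its regulators, and the classes were named from markers among which none of the 9 occurs. All 10 vascular smooth muscle markers (Lmod1, Pln, Kcnmb1 and others) were detected in the smooth muscle-like class, all 10 pericyte markers (Rgs5, Kcnj8, Abcc9 and others) in the pericyte-like class and all 10 stromal markers (Pdgfra, Dpt, Lum and others) in the Pdgfra-positive class. Detection alone does not separate the classes, as all 10 pericyte markers were also detected in the smooth muscle-like and Pdgfra-positive classes. On day 0 the smooth muscle markers summed to 6303-6501 CPM (defined below) in smooth muscle-like, 594-1686 in pericyte-like and 197-227 in Pdgfra-positive cells. Pericyte markers summed to 2647-3604, 10082-18288 and 227-246 CPM in the same order. Stromal markers summed to 327-486, 386-3519 and 24240-28585 CPM. On day 7 the pericyte markers overlapped between smooth muscle-like (4266-11484 CPM) and pericyte-like cells (8986-11042 CPM). Smooth muscle markers summed to 5694-7428 and 561-754 CPM in these classes on that day. Smooth muscle-like cells numbered 137 on day 0, 26 on day 3, 85 on day 7, 235 on day 21 and 93 with p7N3. Pericyte-like cells numbered 36, 18, 372, 269 and 318 in the same order, and Pdgfra-positive cells 1139, 820, 4373, 1663 and 3568. Day 0 libraries were the shallowest, with 3019467 to 5383855 unique molecular identifiers (UMIs), each counting 1 captured transcript, against 11064153 to 39870492 in the other groups. No pair of libraries shared more than 22 cell barcodes. Levels are given in CPM, the UMI counts summed over the cells of a class in a library and scaled to the same total in each, and changes as log2 fold changes with standard errors from edgeR's quasi-likelihood test on sums of at least 10 cells, adjusted over all genes tested, among which all 9 genes were in each class. UMIs were counted from transcript ends, so that CPM values of different genes can be set side by side without a correction for length.

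On day 0 smooth muscle-like and Pdgfra-positive cells differed by more than 100-fold in the sum of the 9 genes, with pericyte-like cells between them. The summed level was 50862 ± 5233 CPM (SD, n = 4) in smooth muscle-like cells, 13374 ± 2474 CPM (n = 2) in pericyte-like cells and 492 ± 18.1 CPM (n = 4) in Pdgfra-positive cells. Acta2 made up 32.3% ± 0.986 of the contractile UMIs in smooth muscle-like cells and Tagln 20.6%. In Pdgfra-positive cells of day 0 the make-up was another one, with Cald1, which non-muscle cells also use, at 65.1% ± 5.22 and Acta2 at 5.76%. By day 7 the summed level of the Pdgfra-positive cells stood at 3838 ± 1232 CPM (n = 4), of which Acta2 was 31.6% ± 5.1, Cald1 15.8% ± 3.83, Tpm1 17% and Tagln 14.5%. Myh11 was 7.19% of the contractile UMIs in smooth muscle-like cells on day 0 and 0.0399% in Pdgfra-positive cells on day 7. These class-against-class values are descriptions, since the classes were drawn from the same cells.

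**Figure D1:**
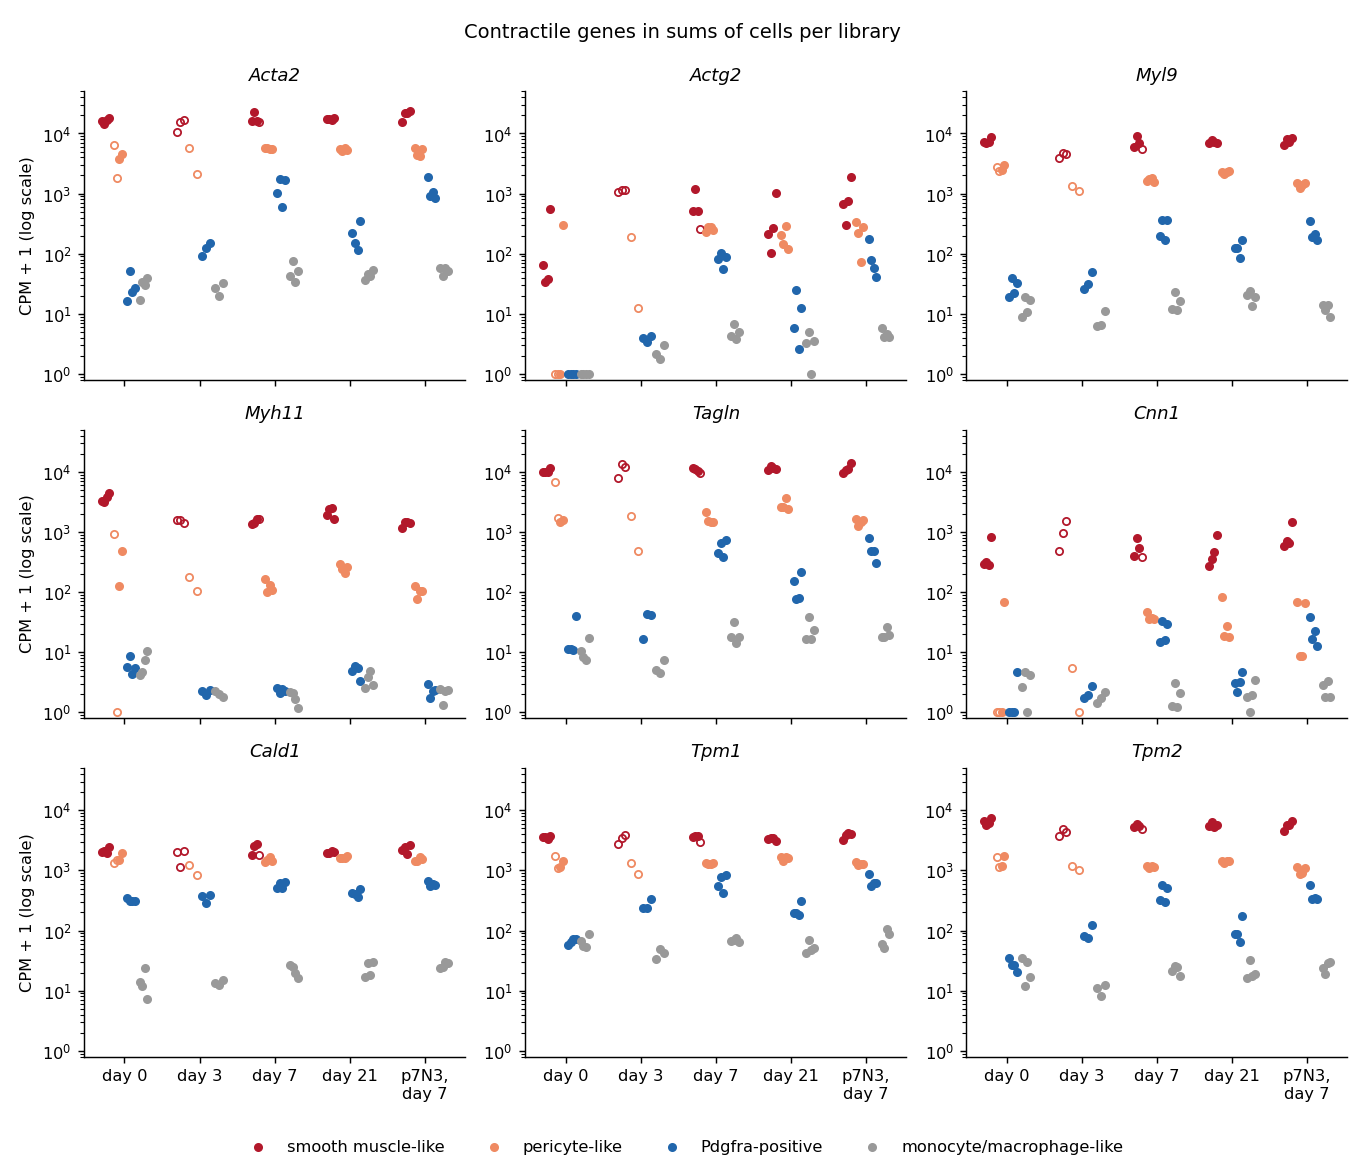
Level of each of the 9 genes (CPM + 1, log axis) in every library with at least 5 cells of the class, by group, for smooth muscle-like, pericyte-like and Pdgfra-positive cells and for monocyte/macrophage-like cells as background; open points are sums of 5 to 9 cells. Acta2 in Pdgfra-positive cells lies between 15.2 and 51.5 CPM on day 0 and between 594 and 1718 CPM on day 7, while Myh11 there stays under 8 CPM in every library.

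**Figure D2:**
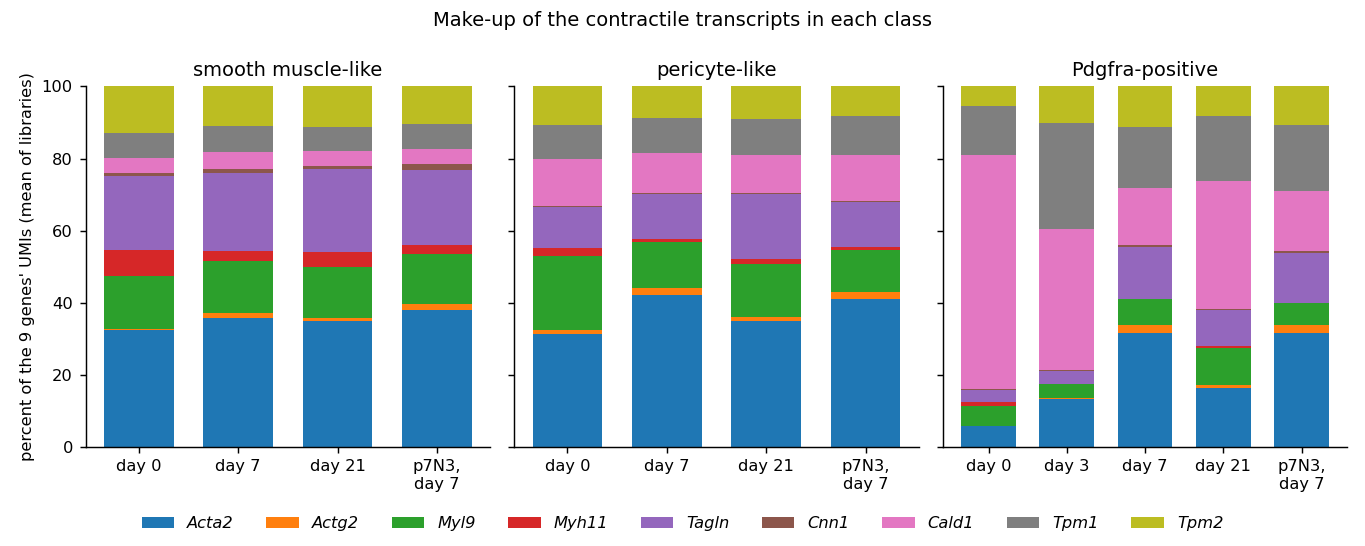
Share of the UMIs of the 9 genes taken by each gene (percent, mean over libraries, stacked bars from 0) in each class and group. Cald1 takes 65.1% of the bar of Pdgfra-positive cells on day 0 and 15.8% on day 7, and Acta2 5.76% and 31.6%.

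In smooth muscle-like cells the myosin heavy chain was lower after injury while Acta2 and most of the filament-binding genes were near their day 0 levels. The other actin, Actg2, spread widely between libraries and is given below. Myh11 measured 3335, 3170, 3780 and 4391 CPM in the 4 day 0 libraries, 1369, 1410 and 1620 CPM in day 7 replicates 1 to 3, and 1924, 2380, 2483 and 1631 CPM on day 21. The day 0 libraries lay above every later library. In edgeR, Myh11 fell by 1.39 ± 0.162 on the log2 scale by day 7 (2.61-fold lower, adjusted p = 5e-06, n = 3 against 4) and by 0.88 ± 0.143 by day 21 (1.84-fold lower, adjusted p = 0.00029, n = 4 against 4). It was the only one of the 9 genes to pass the test in either comparison, in which 26.9% (day 7) and 18.2% (day 21) of the 3937 genes tested passed. The day 7 library labelled replicate 4 had 9 smooth muscle-like cells and did not enter the fits; its Myh11 was 1653 CPM. Pericyte markers in the smooth muscle-like class summed to 2647-3604 CPM on day 0, 4266-11484 CPM on day 7 and 5375-7113 CPM on day 21, and their part in the lower Myh11 was not tested.

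Acta2, the most abundant of the 9 in these cells, measured 16258, 14581, 16466 and 18419 CPM on day 0, and its mean was 18472 ± 4048 CPM (n = 3) on day 7 and 17433 ± 394 CPM (n = 4) on day 21. The day 7 change was 0.11 ± 0.143 on the log2 scale (edgeR adjusted p = 0.62). Tagln was at 10439 ± 916 CPM on day 0, 11031 ± 716 on day 7 and 11418 ± 720 on day 21, and its day 7 change was 0.02 ± 0.126 (adjusted p = 0.95). The ranges of both genes overlapped between the days. Myl9, Tpm1 and Cald1 changed by -0.09 ± 0.141, -0.01 and 0.12 on the log2 scale by day 7, and none passed. Tpm2 was at 6524 ± 712 CPM on day 0 and 5526 ± 335 CPM on day 7, a change of -0.30 ± 0.131 that missed the threshold (adjusted p = 0.093) and passed it without the library day 0 replicate 2 (-0.38, adjusted p = 0.045).

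Actg2, the actin that visceral muscle uses most, gave the widest spread between libraries. It was at 64.4, 32.6, 36.5 and 555 CPM in day 0 replicates 1 to 4, at 511, 1188 and 503 CPM in day 7 replicates 1 to 3, and at 212, 100, 264 and 1029 CPM on day 21. Replicate 4 of day 0 lay above all day 7 values but 1188, and the groups overlapped only through it. The change by day 7 was 1.90 ± 0.785 on the log2 scale (edgeR adjusted p = 0.079) with that library and 3.85 ± 0.888 (adjusted p = 0.004) without it; by day 21 it was 1.12 ± 0.726 (adjusted p = 0.31) and 3.06 ± 0.86 (adjusted p = 0.023). Cnn1 showed the same library apart, at 835 CPM against 297, 315 and 282 CPM in the other day 0 libraries, and its day 7 change was 0.31 ± 0.426 (adjusted p = 0.63). The submitters' notes name another genome build for replicate 4 of every group that has one, and its part in these values was not tested.

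Day 3 gave 9, 8 and 9 smooth muscle-like cells in its 3 libraries, too few for the sums of at least 10 cells. Pooled over the 26 cells, Acta2 stood at 14573 CPM, Myh11 at 1516, Myl9 at 4396, Tpm2 at 4313, Cnn1 at 1064 and Actg2 at 1120 CPM. A fit on sums of at least 5 cells, chosen after seeing the data, gave lower Myh11 (-1.27 ± 0.161 on the log2 scale), Myl9 (-0.79 ± 0.158) and Tpm2 (-0.60 ± 0.141), and higher Actg2 (2.60 ± 0.739, adjusted p = 0.01) and Cnn1 (1.2 ± 0.434, adjusted p = 0.043). In that edgeR fit 25.8% of all genes passed, and 5 of the 9. With the mural cells not re-clustered, Myl9 (-0.43) and Tpm2 (-0.27) no longer passed, and Myh11, Actg2 and Cnn1 did. Granulocyte markers summed to between 1410 and 2011 CPM in these day 3 sums against 5 to 43 CPM on day 0, and their part in the values was not tested.

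The smooth muscle-like class was not made of the same sub-clusters on every day. On day 0 sub-cluster 1 (led by Myh11, Pln and Rasl11a) held 51.1% of it, sub-cluster 2 (Myh11, Rasl11a and Rasd1) 39.4% and sub-cluster 4 (Myh11, Mustn1, Sncg and Cnn1) 9.49%, whereas sub-cluster 4 held 96.2% on day 3, 69.4% on day 7 and 56.2% on day 21. Myh11 pooled over cells was 3826 CPM in sub-cluster 1 on day 0, 2292 CPM on day 7 (17 cells) and 2881 CPM on day 21. In sub-cluster 4 it was 3937 CPM on day 0 (13 cells), 1256 CPM on day 7 and 1577 CPM on day 21. Myh11 was thus lower on day 7 than on day 0 within both sub-clusters, without a test. Sub-cluster 2 had 9 cells on day 7, too few for a value, and had 3515 CPM on day 0 and 2316 CPM on day 21. Actg2 stood at 1402 CPM on day 0, 1137 CPM on day 3 and 738 CPM on day 7 in sub-cluster 4, and at no more than 113 CPM in sub-clusters 1 and 2 on any day.

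Genes around the contractile filament moved in several directions in the smooth muscle-like cells by day 7, in a comparison in which 26.9% of all genes passed in either direction. Of 14 genes of myosin activation and relaxation tested, 2 rose and 8 fell, with a median log2 change of -0.87 beside 0.03 over all genes. Ppp1r12b, a targeting subunit of the phosphatase that switches myosin off, was at 147 ± 31.4 CPM on day 7 (n = 3) against 463 ± 43.7 CPM on day 0 (-1.68 ± 0.225, edgeR adjusted p = 1.8e-05). It fell along with Atp2a2, the pump that returns calcium to its store, at 346 ± 52.8 against 811 ± 97.6 CPM (-1.28 ± 0.195, adjusted p = 7.2e-05), and 2 of the 3 calcium genes tested fell.

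Of 20 genes of the cytoskeleton and dense bodies, 2 rose and 11 fell, again beside 26.9% of all genes that passed. Flna, an actin crosslinker, went from 2768 ± 230 to 1107 ± 58.1 CPM (-1.38 ± 0.134, edgeR adjusted p = 5.9e-07), and Smtn and Pgm5 fell as well. The non-muscle list moved the other way, with 7 of 11 genes higher and 1 lower. Tpm4, a non-muscle tropomyosin, went from 262 ± 72.2 to 828 ± 71.3 CPM (1.63 ± 0.219, adjusted p = 1.9e-05), and Tagln2 from 173 ± 46.5 to 570 ± 63.5 CPM (1.63 ± 0.252, adjusted p = 8.7e-05). Klf4, a transcription factor linked to the loss of the contractile state in vessel injury, was lower, at 158 ± 95.8 against 475 ± 118 CPM (-1.55 ± 0.319, adjusted p = 0.0012). Of 8 matrix genes 5 rose, among them Fn1 (fibronectin) at 983 ± 271 against 147 ± 75.7 CPM (2.71 ± 0.327, adjusted p = 6.4e-06). The summed stromal markers in the smooth muscle-like class ranged from 327 to 1405 CPM over the libraries. Granulocyte markers summed to 70 to 1046 CPM on day 7, and the part of these marker lists and of the pericyte markers in these changes was not tested.

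From day 7 to day 21 none of the 9 genes passed in smooth muscle-like cells (edgeR, 0 of 9, against 1.96% of all genes; 0 of 9 in DESeq2), and 1, Myh11, had an unadjusted p under 0.05. Myh11 went from 1467 ± 134 to 2104 ± 398 CPM (0.51 ± 0.158 on the log2 scale, adjusted p = 0.1). Without day 21 replicate 4, where it was 1631 CPM, the change was 0.61 (adjusted p = 0.03). Flna, which had been lower on day 7, was higher on day 21 than on day 7 (0.67 ± 0.131, adjusted p = 0.0084).

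In pericyte-like cells 5 of the 9 genes rose between day 7 and day 21, and both actins were among those that did not pass. Tagln was at 2122, 1526, 1475 and 1482 CPM in the 4 day 7 libraries and at 2612, 2620, 3634 and 2375 CPM on day 21, without overlap (0.83 ± 0.132 on the log2 scale, 1.78-fold, edgeR adjusted p = 3.8e-05). Myh11 went from 165, 98.2, 133 and 107 CPM to 294, 237, 209 and 261 CPM (1.08 ± 0.177, 2.12-fold, adjusted p = 5.6e-05). Myl9 rose from 1674 ± 122 to 2280 ± 117 CPM (0.51 ± 0.102, 1.43-fold, adjusted p = 0.00051). The day 21 libraries lay above all day 7 libraries for each of these 3 genes, and the 3 passed under every alternative run for this comparison.

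Both tropomyosins rose with them, Tpm1 from 1309 ± 25.7 to 1582 ± 99.7 CPM (0.34 ± 0.0969, edgeR adjusted p = 0.011) and Tpm2 from 1149 ± 50.9 to 1399 ± 35.4 CPM (0.35 ± 0.111, adjusted p = 0.023). Tpm2 missed the threshold without day 7 replicate 2 (adjusted p = 0.086) or 4 (0.063) or day 21 replicate 1 or 4 (both 0.052). When the mural cells were clustered again from another random start, 3 of the 9 genes passed, Tpm1 (0.31, adjusted p = 0.055) and Tpm2 (0.26, adjusted p = 0.21) no longer among them. Acta2 did not pass, at 5712, 5708, 5537 and 5483 CPM on day 7 and 5618, 5099, 5745 and 5292 CPM on day 21 (0.02 ± 0.106, adjusted p = 0.92). Actg2 (-0.44 ± 0.283), Cald1 (0.23 ± 0.1) and Cnn1 (0.08) did not pass either. In all, 5 of 9 genes rose, beside 23.7% of the 9232 genes tested that passed in either direction, 12.2% that rose and 11.5% that fell. The share of contractile UMIs taken by Acta2 was 42.2% ± 0.952 on day 7 and 34.8% ± 0.654 on day 21. Vascular smooth muscle markers in this class summed to 561-754 CPM on day 7 and 971-1423 CPM on day 21, and their part in the rise was not tested.

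The pericyte-like class changed its sub-clusters too. Sub-clusters 6, 8 and 9 held 40.6%, 29.6% and 20.7% of it on day 7, and sub-cluster 3 held 7.53% on day 7 and 44.2% on day 21. The part of this shift in the rise of Tagln, Myh11 and Myl9 was not tested. Acta2 on day 7 was 2300 CPM in sub-cluster 6, 7819 CPM in sub-cluster 8, 6096 CPM in sub-cluster 9 and 5141 CPM in sub-cluster 3, where it was 6044 CPM on day 21. Other genes of the pathway that rose in the class by day 21 included Synpo2, an actin-bundling protein (161 ± 44 against 55.6 ± 23.3 CPM, 1.59 ± 0.204, edgeR adjusted p = 2.2e-06), Atp2a2 (213 ± 9.35 against 118 ± 24.8 CPM, 0.92 ± 0.138, adjusted p = 1.8e-05) and Klf4 (217 ± 18.1 against 44 ± 28.6 CPM, 2.41 ± 0.288, adjusted p = 7.1e-07). Actb, the cytoplasmic actin, fell from 9183 ± 683 to 4845 ± 284 CPM (-0.86 ± 0.109, adjusted p = 1.9e-06). Of the lists, 7 of 15 myosin activation genes rose and 2 fell, 9 of 19 cytoskeleton genes rose and 1 fell, and 1 of 12 non-muscle genes rose and 1 fell, beside 12.2% of all genes that rose and 11.5% that fell.

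Comparisons of pericyte-like cells with day 0 rest on 2 libraries of 10 cells each, replicates 3 and 4, in which Acta2 was 3778 and 4567 CPM. These sums lie at the limit of 10 cells, so that the loss of any cell takes a library out of the fits. Leaving out the cells of the highest doublet scores moved the pericyte-like share of Acta2 UMIs on day 0 from 3.08% to 1.28%. In the edgeR fit Acta2 differed by 0.99 ± 0.155 on day 7 (adjusted p = 5.5e-05) and by 1.01 ± 0.155 on day 21 (adjusted p = 6.3e-05), but the median over all genes was 0.80 in both comparisons and 0.98 and 0.89 over genes above 100 CPM. The change of Acta2 was thus close to that of other abundant genes, and no direction is drawn from it. Of the 9 genes 2 (Acta2 and Tpm1) passed on day 7 and 4 (Acta2, Tagln, Tpm1 and Cald1) on day 21, beside 9.65% and 5.44% of all genes. Tpm1 on day 7 was lost without day 0 replicate 3 or any day 7 library, and Cald1 on day 21 without day 0 replicate 3 or day 21 replicate 3 or 4, while Tpm2 on day 21 passed without day 0 replicate 4 (1.02, adjusted p = 0.023). With another random start of the mural clustering Acta2 differed by 0.35 and 0.39 and did not pass (adjusted p = 0.34 and 0.35). Tpm1 on both days and Tagln and Cald1 on day 21 were lost as well, and the 1 gene that passed was Myh11, at -2.06 on day 7 (adjusted p = 6.3e-05) and -1.22 on day 21 (adjusted p = 0.015).

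Pdgfra-positive cells showed the largest changes of the 3 classes. Acta2 measured 15.2, 51.5, 21.8 and 25.6 CPM on day 0, 89.5, 121 and 148 CPM on day 3, 1024, 1718, 594 and 1686 CPM on day 7, and 216, 147, 116 and 348 CPM on day 21. The days did not overlap, save that day 21 replicate 3 lay among the day 3 libraries and replicate 2 just under the highest of them. Against day 0 the log2 change was 2.38 ± 0.464 on day 3 (5.19-fold, edgeR adjusted p = 0.00019), 5.65 ± 0.469 on day 7 (50.3-fold, adjusted p = 9.7e-09) and 3.07 ± 0.449 on day 21 (8.42-fold, adjusted p = 3.8e-05). From day 7 to day 21 it fell by 2.58 ± 0.371 (5.97-fold lower, adjusted p = 3.8e-05). The class leaves out a cluster with chondrocyte-like and tenocyte genes (1473 cells on day 7 and 1205 on day 21), which carried Acta2 as well. The fall is thus that of the class as defined here. In monocyte/macrophage-like cells, which should lack the gene, Acta2 lay between 16 and 73.7 CPM over all libraries, so that the day 0 level of the stromal cells was within that background and the levels from day 3 on were above it.

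Actg2 was at 0 in all 4 day 0 libraries and at 3.0, 2.4 and 3.3 CPM on day 3, within the 0 to 5.8 CPM of monocyte/macrophage-like cells. On day 7 it was at 82.1, 103, 55.1 and 88.3 CPM, and on day 21 at 4.8, 23.6, 1.6 and 11.7 CPM. No day 7 library overlapped with any other day. Taking the floor of 3 counts over the 4 day 0 libraries together (0.499 CPM), Actg2 was at least 164-fold higher on day 7 and at least 19.7-fold higher on day 21. On day 21 replicates 1 and 3 lay within the range of the monocyte/macrophage-like cells, and replicates 2 and 4, which gave 81 and 104 of the 225 Actg2 UMIs, lay above it. The fall of Actg2 from day 7 to day 21 was 3.02 ± 0.501 on the log2 scale (8.11-fold lower, edgeR adjusted p = 0.00024). The call on day 21 against day 0 (adjusted p = 0.023) was lost without day 0 replicate 1 or replicate 3.

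Tagln stayed at 10.4, 10.3, 10.0 and 38.4 CPM on day 0 and at 15.9, 42.9 and 40.3 CPM on day 3, where the groups overlapped through day 0 replicate 4. It reached 440, 657, 384 and 732 CPM on day 7 and was at 149, 77.2, 77.8 and 211 CPM on day 21, with no overlap among day 0, day 7 and day 21. The day 7 change was 5.06 ± 0.504 (33.5-fold, edgeR adjusted p = 9.5e-08), or 5.78 without day 0 replicate 4, and the day 3 change of 1.12 ± 0.539 missed the threshold (adjusted p = 0.079). Without day 0 replicate 4 or day 3 replicate 1 the latter passed, at 1.83 (adjusted p = 0.012) and 1.44 (adjusted p = 0.027). By day 21 Tagln was 2.99 ± 0.5 above day 0 (7.97-fold, adjusted p = 0.00015).

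Of the myosin chains, the light chain rose and the heavy chain was at the level of background. Myl9 was at 18.0, 38.6, 21.2 and 31.6 CPM on day 0, 25.2, 30.2 and 49.1 CPM on day 3, 198, 367, 169 and 363 CPM on day 7, and 124, 124, 84.7 and 171 CPM on day 21. It did not pass on day 3, where the groups overlapped (0.59 ± 0.387, edgeR adjusted p = 0.2), and was 3.46 ± 0.358 above day 0 on day 7 (11-fold, adjusted p = 1.6e-07). The heavy chain Myh11 was at 4.7, 7.7, 3.3 and 4.5 CPM on day 0, 1.5, 1.1, 1.5 and 1.3 CPM on day 7, and 3.8, 5.0, 4.4 and 2.4 CPM on day 21. Its differences passed the test, at -1.75 ± 0.347 on day 7 against day 0 (adjusted p = 0.00028) and 1.45 ± 0.286 on day 21 against day 7 (adjusted p = 0.00067). Monocyte/macrophage-like cells had 5.72 ± 2.96, 0.786 ± 0.467 and 2.56 ± 1.06 CPM of Myh11 on the same days, so that the stromal values are read as background on every day and not as expression.

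Both tropomyosins had passed the test by day 3. Tpm1 was at 56.8, 64.4, 72.5 and 72.3 CPM on day 0, 232, 238 and 337 CPM on day 3, 544, 784, 424 and 843 CPM on day 7, and 194, 192, 184 and 309 CPM on day 21. Its log2 change against day 0 was 2.17 ± 0.247 on day 3 (4.51-fold, edgeR adjusted p = 3.6e-07), 3.32 ± 0.243 on day 7 (10-fold, adjusted p = 1.9e-09) and 1.78 ± 0.237 on day 21 (3.43-fold, adjusted p = 1.3e-05). Every later library lay above every day 0 library. Tpm2 went from 26.3 ± 5.97 to 92.3 ± 26.6 CPM on day 3 (1.94 ± 0.355, 3.83-fold, adjusted p = 9.9e-05) and to 426 ± 136 CPM on day 7 (4.03 ± 0.345, 16.3-fold, adjusted p = 1.5e-08).

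Cald1 had the highest and Cnn1 one of the lowest day 0 levels of the 9 genes. Cald1 was at 353, 305, 311 and 309 CPM on day 0 and was at 514, 626, 517 and 640 CPM on day 7 (0.88 ± 0.118, 1.85-fold, edgeR adjusted p = 3.6e-06), the smallest rise of the 8 genes that rose. Its day 3 change of 0.30 ± 0.126 (adjusted p = 0.046) was lost when day 0 replicate 2, 3 or 4 or day 3 replicate 1 or 3 was left out. Cnn1 was at 0, 0, 0 and 3.8 CPM on day 0 and at 13.8, 32.6, 14.7 and 28.3 CPM on day 7 (4.75 ± 0.805, 27-fold, adjusted p = 5.8e-05). That fold rests on day 0 replicate 4, the only day 0 library with a count, and without it the fitted change was 10.81, which is no bound. On day 21 Cnn1 was at 2.28 ± 1.05 CPM, which did not pass against day 0 (1.61 ± 1.17, adjusted p = 0.32).

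Counted over the 9 genes, 4 rose by day 3, 8 by day 7 and 7 by day 21, and from day 7 to day 21 the 8 fell. Myh11 passed in the opposite direction by day 3, by day 7 and from day 7 to day 21, at levels that are read as background. Of the 13653 genes tested, 61.3%, 53.9%, 31.3% and 37.0% passed in these 4 comparisons in either direction, with 32.5%, 29.0% and 17.2% rising and 28.7%, 24.9% and 14.1% falling in the first 3 and 16.9% rising and 20.1% falling in the last. The median log2 change of the 9 genes was 4.03 on day 7, beside 0.06 over all genes, and -2.03 from day 7 to day 21, beside -0.02. The vascular smooth muscle markers in the Pdgfra-positive class summed to 197-227 CPM on day 0, 34-38 CPM on day 3, 41-64 CPM on day 7 and 91-183 CPM on day 21, and were therefore lower on day 7, when the contractile genes were highest. Pericyte markers summed to 227-246 CPM on day 0 and 178-286 CPM on day 7. The class's own stromal markers summed to 24240-28585 CPM on day 0, 3179-5134 on day 3, 8077-11973 on day 7 and 18067-22900 CPM on day 21. They were thus lower on every later day than on day 0. Some other marker lists were higher in the class after injury. Tenocyte markers summed to 191-293 CPM on day 0, 132-340 CPM on day 3, 690-1044 CPM on day 7 and 1266-2186 CPM on day 21, so that they were highest on day 21, when the contractile genes had fallen. Chondrocyte markers summed to 23-47 CPM on day 0, 123-200 CPM on day 7 and 108-293 CPM on day 21. Granulocyte markers went from 5-23 CPM on day 0 to 1431-2437 CPM on day 3 and 120-378 CPM on day 7. The part of these lists in the contractile changes was not tested.

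**Figure D3:**
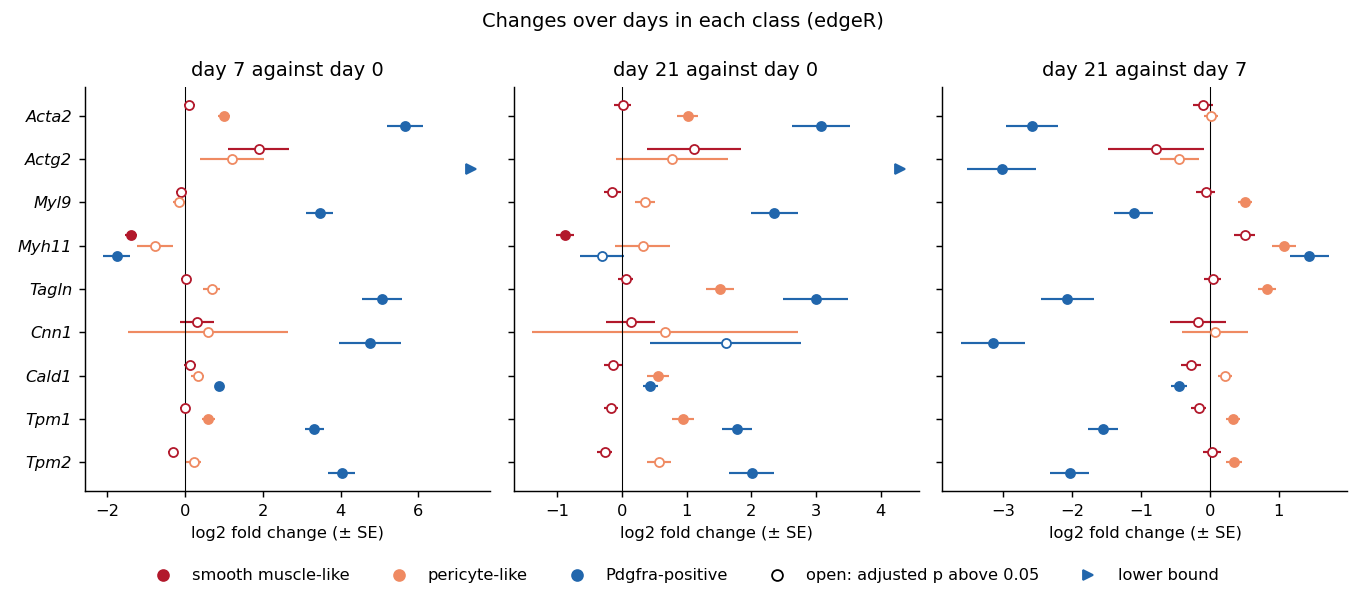
Log2 fold change with its standard error of each of the 9 genes in each class for day 7 against day 0, day 21 against day 0 and day 21 against day 7; filled points have an edgeR adjusted p under 0.05, open points do not, and the triangle is the lower bound for Actg2 in Pdgfra-positive cells. Acta2 stands at 5.65 in Pdgfra-positive cells and 0.11 in smooth muscle-like cells on day 7, and Myh11 at -1.39 in smooth muscle-like cells.

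At a fixed depth a larger share of Pdgfra-positive cells showed an Acta2 UMI after injury than on day 0. Such a share also grows with the level per cell, so that it cannot tell more expressing cells from more transcripts per cell. To compare shares of cells across depths, each cell was thinned to 1500 UMIs, which left out 67 of 1139 Pdgfra-positive cells of day 0 and none of the other days. At that depth 2.17% ± 0.59 of Pdgfra-positive cells had an Acta2 UMI on day 0, 12.8% ± 3.4 on day 3, 32.7% ± 13.1 on day 7 and 11.2% ± 3.1 on day 21, against 6.01%, 3.52%, 7.39% and 6.6% of monocyte/macrophage-like cells. Unthinned, the stromal shares were 9.26%, 70.4%, 60.9% and 44.1%, with median depths of 5172, 34720, 12853 and 12133 UMIs per cell. Acta2 and Tagln were both seen in 0%, 2.29%, 19.4% ± 8.5 and 2.48% of the thinned cells, and in at most 0.423% of monocyte/macrophage-like cells. The day 0 value was 0 of 1072 cells, which allows a share of up to 0.344% (exact 95% interval over cells pooled from 4 libraries, counting error only). This limits the share of cells with UMIs of both genes at the thinned depth, not the share that expresses them.

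At the same depth the share of Pdgfra-positive cells with UMIs of at least 5 of the 9 genes was 0% on day 0, 0.396% on day 3, 15.5% ± 7.37 on day 7 and 1.44% on day 21. The mean number of the 9 genes seen per cell was 0.546, 0.947, 2.07 ± 0.506 and 0.975 on these days. Smooth muscle-like cells had a mean of 7.35 on day 0, 7.30 on day 7 and 7.19 on day 21, and pericyte-like cells 4.71 ± 0.206 on day 7 and 5.26 ± 0.0892 on day 21. On day 7, 22.6% of Pdgfra-positive cells showed none of the 9 genes. Two-sided exact permutation tests over libraries gave p = 0.0286, the smallest that 4 against 4 allows, for the share of cells with each gene on day 7 against day 0 except Myh11 (p = 0.0857). Of 45 such comparisons 20 had an unadjusted p under 0.05, and the smallest Benjamini-Hochberg adjusted p over the 45 was 0.0643. The smallest p of 3 against 4 libraries is 0.0571.

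The contractile genes were unevenly spread over the clusters that make up the Pdgfra-positive class, and these differed between days. Cluster 0 (led by Myoc, Gsn and Clec3b) held 82.6% of the class on day 0, cluster 1 (Prg4, Cxcl14 and Lcn2) 92.2% on day 3, and cluster 13 (Sfrp4 and Eln) 60.0% on day 21. On day 7 the class was split among cluster 15 (Crabp1, Lrrc15 and Tnc) with 27.5%, cluster 13 with 24.8%, cluster 16 (Gzme and Sfrp1) with 15%, cluster 27 (the cell cycle genes Ube2c, Birc5 and Top2a) with 14.5% and cluster 3 (Has1 and C3) with 9.8%. Pooled over its cells, Acta2 on day 7 was 2320 CPM in cluster 15 and 1991 CPM in cluster 27. It was 421 CPM in cluster 1, 145 in cluster 16, 96.8 in cluster 13, 43.3 in cluster 3 and 26.7 CPM in cluster 0. Clusters 1 and 15 got no name from the markers and joined the class because 87.6% and 71.9% of their cells had a Pdgfra UMI. Cluster 15 scored 1.135 for tenocyte and 1.134 for stromal markers. A Pdgfra limit of 75%, which left cluster 15 out, kept the outcome of 41 tests of single genes in the class, lost 3 calls and added 1. These counts do not give the size of the rise without cluster 15, which had the highest Acta2.

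Pooled levels differed between days within some clusters, without a test. In cluster 15 Acta2 was 243 CPM on day 3 (15 cells), 2320 CPM on day 7 (1203 cells) and 640 CPM on day 21 (78 cells). In cluster 27 it was 225, 1991 and 1062 CPM on the same days. Cluster 13, the main cluster of day 21, had 96.8 CPM on day 7 and 91.5 CPM on day 21, and cluster 0 had 18.8 CPM on day 0, 26.7 on day 7 and 43.2 on day 21. Tagln followed the same order on day 7, with 1040 CPM in cluster 15, 816 in cluster 27 and 69.7 in cluster 13, and so did Actg2, with 153, 128 and 8.57 CPM. Actg2 was also among the 10 leading genes of cluster 15 when that cluster was compared with the rest. Cald1 was less uneven, at 782 CPM in cluster 15, 369 in cluster 13 and 290 in cluster 0, and Myh11 was between 0.5 and 2.0 CPM in all of them.

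**Figure D4:**
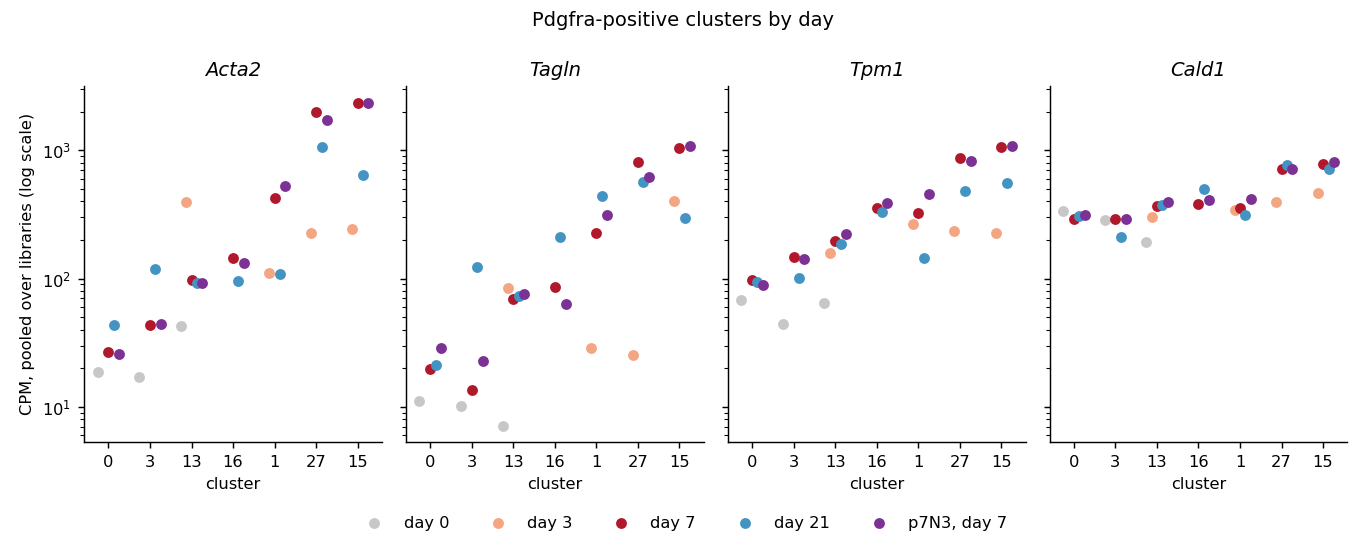
Pooled level (CPM, log axis) of Acta2, Tagln, Tpm1 and Cald1 in 7 clusters of the Pdgfra-positive class by group. Clusters 15 and 27 hold the highest Acta2 on day 7, at 2320 and 1991 CPM, against 26.7 CPM in cluster 0.

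Some partners of the filament rose with the contractile genes in Pdgfra-positive cells, while the regulators of myosin were split. By day 7, 12 of 20 genes of the cytoskeleton and dense bodies rose, 8 did not pass and none fell, beside 29.0% of all genes that rose and 24.9% that fell. Among the 12 was Actn1, an actin crosslinker (207 ± 48.2 against 16 ± 2.48 CPM, 3.74 ± 0.179, edgeR adjusted p = 1.6e-11). Csrp2, a LIM protein of smooth muscle, was at 862 ± 101 against 110 ± 14.1 CPM (3.01 ± 0.146). The non-muscle list had 10 of 12 genes higher and 1 lower, with Cnn2 at 237 ± 91 against 22 ± 5.8 CPM (3.45 ± 0.299) and the non-muscle myosin heavy chain Myh9 at 94.3 ± 15.4 against 29.2 ± 7.56 CPM (1.76 ± 0.177, adjusted p = 1.1e-07). Of 15 myosin activation genes 5 rose and 8 fell. Ppp1r12b was at 6.3 ± 0.634 against 27.3 ± 5.28 CPM (-2.08 ± 0.181, adjusted p = 1.8e-08), a fall also seen by day 3 (-2.11).

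Among the transcriptional regulators 3 of 11 rose and 3 fell by day 7, shares close to the 29.0% and 24.9% of all genes. Fhl2, a LIM cofactor, was at 97.6 ± 15.1 against 7.6 ± 3.39 CPM (3.61 ± 0.242, edgeR adjusted p = 7e-10) and Klf4 at 254 ± 76.3 against 1110 ± 91.6 CPM (-2.09 ± 0.214, adjusted p = 1.3e-07). Of 13 matrix genes 11 rose and 1 fell, including Tnc, tenascin C (785 ± 91.1 against 10.4 ± 11.2 CPM, 6.34 ± 0.416), and Col12a1 (499 ± 73.5 against 20.3 ± 2.43 CPM, 4.64 ± 0.152). By day 3 Actn1 (152 against 16 CPM, 3.42 ± 0.185) and Csrp2 (586 against 110 CPM, 2.57) had already risen, among 12 of 20 genes of their list that rose and 5 that fell, beside 32.5% and 28.7% of all genes.

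From day 7 to day 21, 11 of the 20 cytoskeleton genes fell and 2 rose, and 10 of the 12 non-muscle genes fell and 1 rose, beside 20.1% of all genes that fell and 16.9% that rose. Csrp1 went from 375 ± 136 to 133 ± 36.6 CPM (-1.48 ± 0.209, edgeR adjusted p = 3.3e-05), and Actb by -1.15 ± 0.115 (adjusted p = 1.3e-06). The matrix list was mixed, with 7 of 13 lower and 3 higher. Tnc fell from 785 to 185 CPM (-2.08 ± 0.293), whereas Col8a1 rose from 163 ± 24.2 to 375 ± 26.8 CPM (1.21 ± 0.147). Klf4 rose from 254 to 554 CPM (1.13 ± 0.207).

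The changes in stromal cells were set against those in the vessel wall of the same libraries, with the library as a block. By day 7, 8 of the 9 genes rose more on the log2 scale in Pdgfra-positive than in smooth muscle-like cells (edgeR interaction, 9.58% of all genes passed in either direction). These are differences of folds between classes that started from unlike levels. Actg2 had 0 UMIs in the stromal cells of day 0, so that its fitted difference of 9.48 ± 2.4 sets no size. Acta2 differed by 5.26 ± 0.372 on the log2 scale (adjusted p = 4.5e-13), Tagln by 4.92 ± 0.394, Tpm2 by 4.18 ± 0.302, Myl9 by 3.31 ± 0.289, Tpm1 by 3.13 ± 0.248 and Cald1 by 0.71 ± 0.191 (adjusted p = 0.012). Myh11, whose stromal values are read as background, did not pass (-0.33 ± 0.347, adjusted p = 0.66). The call for Actg2 was lost without day 0 replicate 4 (adjusted p = 0.24), and that for Cald1 without day 0 replicate 3 (0.66, adjusted p = 0.054) or 4 (0.55, adjusted p = 0.11) or day 7 replicate 1 (0.46, adjusted p = 0.22) or 2 (0.56, adjusted p = 0.11).

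By day 21, 5 genes differed from smooth muscle-like cells in their change (5.98% of all genes passed), with Acta2 at 2.89 ± 0.346 and Tagln at 2.84 ± 0.376, and Cald1 passed as well without day 21 replicate 3 (0.62, adjusted p = 0.04). From day 7 to day 21, 5 genes fell more in the stromal cells (1.91% of all genes passed), with Acta2 at -2.37 ± 0.328 (adjusted p = 2.1e-05), Tagln at -2.08 ± 0.337 and Cnn1 at -2.82 ± 0.456. Actg2 passed in the last comparison without day 21 replicate 2 (-3.13, adjusted p = 0.0021), and Myl9 without day 7 replicate 3 (-1.15, adjusted p = 0.025) or day 21 replicate 4 (-1.02, adjusted p = 0.013).

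Against pericyte-like cells, 8 of the 9 genes fell more in Pdgfra-positive cells from day 7 to day 21, the exception being Myh11 (0.31 ± 0.256, edgeR adjusted p = 0.55), while 8.79% of all genes passed. Tagln, which rose in the former and fell in the latter, differed by -2.91 ± 0.328, and Acta2 by -2.54 ± 0.287 (adjusted p = 6.6e-07). The call for Cnn1 was lost without day 21 replicate 1 (-2.04, adjusted p = 0.16). Of the 9 genes, 5 differed on day 7 against day 0 (4.49% of all genes passed), with Acta2 at 4.57 ± 0.47, and 2 on day 21 (3.25% passed), Acta2 at 2.02 ± 0.476 and Myl9 at 1.90 ± 0.392. Those 2 calls were lost without day 0 replicate 3 or 4, and Tpm2 passed without day 21 replicate 1 (1.65, adjusted p = 0.045) or 3 (1.69, adjusted p = 0.025). Over all genes the median of these differences from day 0 was -0.98 and -0.94, and the values for Acta2 stand above it. Both comparisons with day 0 rest on day 0 replicates 3 and 4, with 10 pericyte-like cells each. They were not refitted with the other random start of the mural clustering.

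Over all cells of a library, the largest mean share of Acta2 transcripts lay in smooth muscle-like cells on day 0 and in Pdgfra-positive cells on day 7. Smooth muscle-like cells held 79.6% ± 4.23 of all Acta2 UMIs on day 0, 29% ± 8.07 on day 3, 8.86% ± 6.03 on day 7 and 44.7% ± 4.76 on day 21. Pdgfra-positive cells held 1.21% ± 0.694, 21.1% ± 10.9, 52.8% ± 13 and 5.54% ± 2.25 on these days, and pericyte-like cells 3.08%, 11.6%, 16% and 17.3%. Without the cells of the highest doublet scores (Scrublet) the pericyte-like share of day 0 was 1.28%. The rest of the Acta2 UMIs lay in cells outside these 3 classes. Among them was cluster 14, with chondrocyte-like and tenocyte genes (1473 cells on day 7 and 1205 on day 21). In it 50.2% of cells had a Pdgfra UMI and Acta2 was at 895 CPM on day 7. It was kept out of the Pdgfra-positive class because its markers gave it another name, so that the share of 5.54% does not include it. An unnamed mural sub-cluster with Rgs5 also lay outside the 3 classes, and the smooth muscle-like and pericyte-like shares do not include it. These shares depend on how many cells of each class were caught, and smooth muscle-like cells were 3.75%, 0.455%, 0.622% and 4.32% of all cells. In summed tissue, fewer cells of a type and less RNA per cell cannot be told apart. Over whole libraries Acta2 was at 817 ± 177 CPM on day 0, 207 ± 81.1 on day 3, 1040 ± 259 on day 7 and 1150 ± 130 CPM on day 21.

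For the other genes the shift was of unequal size. Smooth muscle-like cells held 88.4% ± 3.77 of the Myh11 UMIs on day 0, 44.7% ± 12 on day 7 and 75.1% ± 4.54 on day 21, and Pdgfra-positive cells at most 4.48% on these days. Pericyte-like cells held 25.3% ± 5.96 of Myh11 on day 7. Tagln followed Acta2, with 73.6% in smooth muscle-like cells on day 0 and 46.9% ± 9.06 in Pdgfra-positive cells on day 7. Actg2 went from 0% to 58.4% ± 15.3 in Pdgfra-positive cells between the same days. Cald1 was held by Pdgfra-positive cells to 29.6% on day 0 and 57.2% on day 7.

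**Figure D5:**
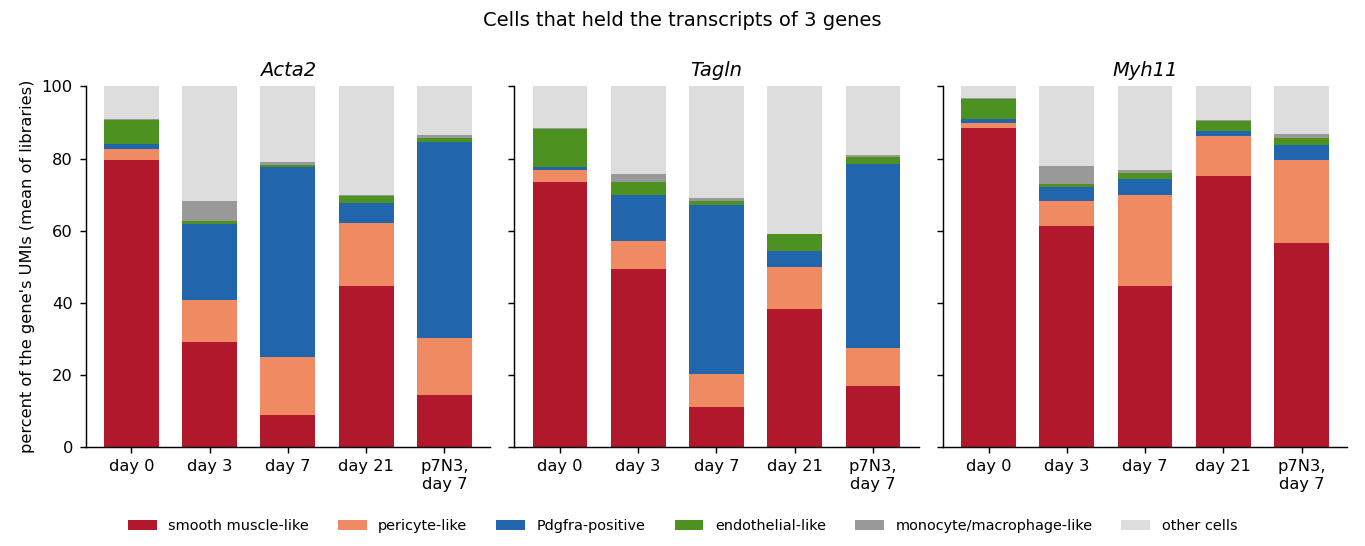
Share of all Acta2, Tagln and Myh11 UMIs (percent, mean over libraries, stacked bars from 0) held by each class of cells in each group. Smooth muscle-like cells hold 79.6% of Acta2 on day 0 and 8.86% on day 7, and Pdgfra-positive cells 1.21% and 52.8%.

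The CD47-activating peptide p7N3 was compared with day 7. None of the 9 genes passed in any class (edgeR, 0 of 9 in smooth muscle-like, pericyte-like and Pdgfra-positive cells, with 0, 1 and 0 genes at an unadjusted p under 0.05, and 0 in each class in DESeq2), and 0.0%, 0.0108% and 0.0439% of all genes passed. In Pdgfra-positive cells Acta2 was at 1888, 928, 1067 and 851 CPM with p7N3, within the range of the 4 day 7 libraries but for the highest (-0.09 ± 0.348 on the log2 scale, adjusted p = 0.97). The log2 changes of the 9 genes there lay between -0.25 (Myl9) and 0.07 (Actg2). In smooth muscle-like cells Myh11 was at 1368 ± 144 CPM with p7N3 and 1467 ± 134 CPM on day 7, and Acta2 at 20784 ± 3386 and 18472 ± 4048 CPM. Pdgfra-positive cells held 54.6% ± 7.44 of Acta2 UMIs with p7N3. With standard errors such as that of Acta2, smaller differences were not detectable at this number of libraries. Of the pathway genes, Filip1l passed in Pdgfra-positive cells, at 35.2 ± 4.45 against 61.6 ± 8.68 CPM (-0.81 ± 0.107, adjusted p = 0.0042). The change of the 9 genes did not differ between classes either (0 of 9 in both interaction fits, 0 at an unadjusted p under 0.05, with 0.0% and 0.00895% of all genes passing).

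The genes most like the 9 were found by Pearson's correlation of their log2 CPM with the mean standardised level of the 9 over the library sums of a class. In Pdgfra-positive cells (19 sums) they were Tanc1 (0.961), Wfdc18 (0.959), Csrp1 (0.954), Cnn3 (0.954) and Gzme (0.950). In pericyte-like cells (14 sums) they were Mylk, the kinase that switches myosin on (0.952), Inpp4b (0.948), H2-M9 (0.940), Tmem182 (0.939) and 1700025G04Rik (0.937). In smooth muscle-like cells (15 sums) the likeness was looser, with Csrp1 (0.848), Dstn, an actin-severing protein (0.796), Ppme1 (0.776), Sh3bgr (0.752) and Ppp1r14a (0.741). The sums of a group share their day and its depth, so that these values describe the pattern over days.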

How the data were processed

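The deposited matrices hold UMI counts per gene and cell from 10x Genomics 3′ libraries, which the authors aligned and counted with Cell Ranger against mm10 per the study's methods. The submitters' processing notes name GRCh38 for replicates 1 to 3 and mm10 for replicate 4, and all 19 matrices list mouse genes. Groups were taken from the labels. The day of p7N3 replicate 4 comes from a figure legend of the study, which gives 1 week for the treated mice. The 9 genes, the lists and the tests were chosen with earlier results of these data known.

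Barcodes under 500 genes or over 25% mitochondrial UMIs were dropped, also in 1 matrix that held all barcodes. Cells were normalised, reduced to 30 principal components of 2000 variable genes and clustered (scanpy 1.11.5, Leiden resolution 0.8, 20 neighbours), giving 31 clusters; 92 contractile and related genes were left out of the variable genes, and the mural clusters were clustered again. Clusters were named from marker lists, and clusters without a name joined the Pdgfra-positive class where 50% or more of their cells had a Pdgfra UMI. No doublets were removed; leaving out the 3.9% of cells with the highest Scrublet scores was an alternative.

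UMI counts were summed per library and class (at least 10 cells) and tested with edgeR 4.0.16 (quasi-likelihood, TMM, filterByExpr, 5 groups in 1 fit, limma 3.58.1, R 4.3.3) with Benjamini-Hochberg adjustment over all genes tested at 0.05. DESeq2 1.42.0 was an alternative. The fits were tested on simulated counts. Standard errors were the absolute log2 fold change divided by the square root of F. Shares of cells were compared by two-sided exact permutation tests over libraries. Counts limit precision by sampling error alone where a floor of 3 counts is given. All 9 genes are named; from each list, up to 4 genes per comparison with the largest change past the threshold are candidates for naming.

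Replicate numbers are shared by the groups. Deviations of same-numbered libraries from their group means correlated above 0.1 in 2 of 36 pairs for Pdgfra-positive cells, 0 of 18 for pericyte-like cells and 2 of 21 for smooth muscle-like cells. The main fits therefore did not pair libraries by number, although groups this small cannot decide whether the numbers pair them. Other alternatives were size factors by RLE, no filter on low counts, the 2 groups compared alone, each library left out, replicates 1 to 3 alone, at least 20 cells, at most 10% mitochondrial UMIs, Leiden resolution 2, contractile genes among the variable genes, other Pdgfra limits, tenocyte-like and chondrocyte-like clusters added, and thinning to 1000 or 3000 UMIs. Sums of at least 5 cells, mural cells not re-clustered and mural cells re-clustered from another random start were added after seeing the data.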

Additional observations from a re-analysis of the deposited data

Results flagged for a closer look

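Single libraries lay apart from the rest of their group in 14 of 90 groups of 4 examined. A rate of about 1 in 20 would hold by chance for independent, normally distributed values. The 9 genes share their libraries, and Cnn1 in Pdgfra-positive cells was at 0 in the other day 0 libraries. No excess over chance is therefore read from the count. Among smooth muscle-like cells, day 0 replicate 4 was high for Tagln (11809 CPM), Actg2 (555 CPM) and Cnn1 (835 CPM), p7N3 replicate 4 was high for Cnn1 (1449 CPM) and p7N3 replicate 1 was low for Myh11 (1153 CPM). Day 0 replicate 4 was also high in Pdgfra-positive cells for Tagln (38.4 CPM) and Cnn1 (3.76 CPM). In the same class, Cald1 was high in day 0 replicate 1 (353 CPM), Tpm1 in day 21 replicate 4 (309 CPM) and Tpm2 in p7N3 replicate 1 (561 CPM). Among pericyte-like cells, day 7 replicate 1 was high for Tagln (2122 CPM) and Cnn1 (45.8 CPM), day 21 replicate 1 for Cnn1 (81.8 CPM), and day 21 replicate 2 was low for Tpm2 (1346 CPM).

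The change of the contractile genes differed between classes in tests of the difference itself. Between Pdgfra-positive and smooth muscle-like cells it did so for 8 of the 9 genes on day 7 against day 0, 5 on day 21 against day 0 and 5 on day 21 against day 7. Of all genes 9.58%, 5.98% and 1.91% passed in these comparisons. Between Pdgfra-positive and pericyte-like cells the counts were 5, 2 and 8 in the same order, beside 4.49%, 3.25% and 8.79% of all genes. Of these, the comparisons with day 0 rest on day 0 replicates 3 and 4, with 10 pericyte-like cells each. With a library left out, the 2 genes of day 21 against day 0 became 0 to 3.

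Contractile transcripts were also seen in cells that entered no comparison. A cluster with chondrocyte-like markers, in which the tenocyte genes Fmod and Tnmd were among the leading genes, had 895 CPM of Acta2 on day 7, and an unnamed mural sub-cluster led by Id4, Colec11 and Rgs5 had 1630 CPM on day 7 of Actg2.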

How the results depend on the processing

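In smooth muscle-like cells on day 7 against day 0 the count of the 9 genes passing the test, 1, became 2 without a filter on low counts, with only the 2 groups fitted, with at least 20 cells or with at least 5 cells per sum, and 3 with replicates 1 to 3 alone (1 to 2 when a library was left out). On day 21 against day 0 it became 2 without a filter, with replicates 1 to 3 alone and with at least 20 cells (1 to 2), and on day 21 against day 7 the count of 0 became 2 without a filter and with replicates 1 to 3 alone (0 to 1). In pericyte-like cells on day 7 against day 0 the count of 2 became 1 with DESeq2, RLE, Leiden resolution 2, contractile genes as variable genes or mural cells not re-clustered, and 4 without a filter or with at least 5 cells (1 to 2). On day 21 against day 0 the count of 4 became 2 with RLE, the 2 groups alone or resolution 2 (3 to 5), and on day 21 against day 7 it was 4 to 5 with a library left out.

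Clustering the mural cells from another random start, chosen after seeing the data, kept the smooth muscle-like counts at 1, 1 and 0, while the pericyte-like counts became 1, 1 and 3. The gene that passed against day 0 was Myh11, at -2.06 on day 7 and, reversed, -1.22 on day 21, in place of Acta2 and Tpm1 on both days and Tagln and Cald1 on day 21; the cause was not tested. In Pdgfra-positive cells the counts with a library left out were 4 to 5 on day 3, 9 to 9 on day 7, 6 to 7 on day 21 and 9 to 9 on day 21 against day 7. Adding tenocyte-like and chondrocyte-like clusters kept the outcome of 40 tests of single genes in the class, lost 3 calls and added 1. Beside these 3, it turned the change of Cald1 from day 7 to day 21 to 0.11, which no longer passed (edgeR adjusted p = 0.53). The cause was not tested. Against smooth muscle-like cells the counts of differing genes were 6 to 8, 5 to 6 and 5 to 6, and at least 5 cells gave 8 on day 21 against day 7. Against pericyte-like cells they were 5 to 5, 0 to 3 and 7 to 8, and on day 21 against day 0 the count of 2 became 5 without a filter and 4 with at least 5 cells. The p7N3 counts stayed at 0 to 0 in each class with any library left out. The count of 20 thinned shares with an unadjusted p under 0.05 was 5 to 20, as leaving out a library raises the smallest p. Without the highest Scrublet scores smooth muscle-like cells held 85.4% and pericyte-like cells 1.28% of Acta2 on day 0.

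With the replicate number as a block, which the main fits did not use, the smooth muscle-like counts were 3 on day 7, 2 on day 21 and 1 on day 21 against day 7. Actg2 passed in these at 3.24, 1.32 and -1.93 and Cnn1 at 0.78 on day 7, and Tagln passed at 0.68 in pericyte-like cells on day 7 and at 1.32 in Pdgfra-positive cells on day 3. Low depth limits the day 0 mural sums, as do the few cells of the pericyte-like class. The day 3 mural sums could not be tested at 10 cells per sum.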

Other observations

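The cluster with chondrocyte-like and tenocyte genes, which was kept out of the Pdgfra-positive class, carried contractile transcripts on days 0, 7 and 21, and with 2 cells on day 3 it gave no value for that day. Its pooled Acta2 was 259 CPM on day 0 (61 cells), 895 CPM on day 7 (1473 cells) and 705 CPM on day 21 (1205 cells), and its Tagln was 427, 853 and 895 CPM. On day 21 its Acta2 was thus above the 640 CPM of cluster 15, while the main stromal cluster of that day, cluster 13, had 91.5 CPM. The unnamed mural sub-cluster with Rgs5 held 76 cells on day 7 and 74 on day 21, with Acta2 at 12557 and 10986 CPM, between the levels of pericyte-like and smooth muscle-like cells.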
